A study of Mus musculus with 2 samples.

Results

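The 9 genes described here encode the non-collagenous core of the basement membrane: the laminin chains Lama3, Lama5, Lamb1, Lamb2, Lamb3 and Lamc1, the nidogens Nid1 and Nid2, and perlecan (Hspg2). They were taken by symbol from 2 tables of RPKM (reads scaled to gene length and to the size of the library), 1 for each library, and a gene with no row counted as 0. All 9 had a row in the table of the LLC-bearing library and 8 in that of the control library, of 15113 genes with a row in either. The libraries came from lung epithelial cells sorted as negative for CD45, a leukocyte surface protein, and positive for surfactant protein C (Sftpc). Both groups were C57BL/6 mice aged 6 to 8 weeks. For the LLC-bearing library, which the figures call tumour-bearing, 1000000 cells of the luciferase-labelled line LLC had been placed under the skin of the back. LLC stands for Lewis lung carcinoma, and the labels describe this as a model in which metastases form in the lung spontaneously. The control group were wild-type mice with no tumour. The number of mice behind each library was not stated in those labels. Since each group had 1 library, no difference was checked against replicates, no p-value is given, and every interval is a 95% interval that covers counting error only. Because PCR reads without molecular identifiers are not independent molecules, these intervals are too narrow as statements about cells or mice.

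A laminin is a trimer of 1 alpha, 1 beta and 1 gamma chain that epithelial cells deposit on their basal side, where it polymerises into a sheet and binds integrins and dystroglycan. Nidogens bind the gamma chain encoded by Lamc1 and bridge the laminin sheet to the type IV collagen network, and perlecan, a large proteoglycan carrying heparan sulphate, ties both to each other and holds growth factors. In the lung the epithelial and the capillary basement membranes fuse where gas is exchanged, and mesenchymal and endothelial cells supply part of their components, nidogens among them.

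The recovered library totals were 5335352 reads in the control and 5387114 reads in the LLC-bearing library. Markers of alveolar type 2 (AT2) cells were abundant in both, at a summed 147236 RPKM (control) and 99696 RPKM in the LLC-bearing library over 15 genes, so the label of lung epithelium held in both. The 12 fibroblast markers summed to 26.7 RPKM and 429.6 RPKM, 16.1-fold higher in the LLC-bearing library, with Mgp alone at 9.77 and 214 RPKM. Of the 12, 3 (Lum, Tcf21 and Pi16) had 0 control reads, and 20, 2 and 2 reads in the LLC-bearing library. Tcf21 and Pi16 were thus near the limit of the reads in both libraries, and Col13a1 had 8 and 6 reads. The 14 endothelial markers summed to 118 and 261 RPKM, the 9 smooth muscle and pericyte markers to 3.82 and 15.3 RPKM, and the 5 mesothelial markers to 2.12 and 17.1 RPKM. Alveolar type 1 (AT1) markers summed to 1907 and 3121 RPKM over 14 genes, mostly Ager at 1148 and 1673 RPKM. On the scale described below 8 of the 14, Ager not among them, were past 2-fold upwards. Of all 12288 genes that reached 1 RPKM in either library, 9.38% were past 2-fold upwards. Club cell markers summed to 32902 and 37240 RPKM, mostly Scgb1a1 at 30142 and 35116 RPKM. Of the 6 club markers 3 were higher and 3 lower: Cyp2f2 2.45-fold, Scgb3a2 1.70-fold and Aldh1a1 1.63-fold lower. Ciliated cell markers summed to 559 and 415 RPKM. Macrophage and monocyte markers summed to 92.9 and 218 RPKM, mostly Cd14 and Ly6c2, with Chil3 at 19 and 0 reads and Adgre1, Mrc1 and Marco at 0 in both. Pan-leukocyte markers summed to 88.1 and 54.2 RPKM, of which Lcp1 alone was at 82.7 and 50.3 RPKM. Ptprc, which encodes CD45, had 12 and 2 reads, and Sftpc was at 94903 and 54968 RPKM. The part of these other cell types in the values of the basement membrane genes was not tested. In bulk RNA, a different number of cells of a type and a different amount of RNA per cell cannot be told apart.

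In the control library the order of the levels, per gene length, was Lamb3, Lamb2, Lama5, Lamc1, Lama3, Hspg2, Lamb1, Nid1 and Nid2, from 87.8 RPKM down to 0. In the LLC-bearing library it was Lamb3, Lama5, Lamc1, Lamb2, Hspg2, Nid1, Lama3, Lamb1 and Nid2, from 126 RPKM down to 0.264 RPKM. Lamb3 was first and Nid2 last in both. The counting intervals of neighbours in this order overlapped for Lamb1 and Nid1 in the control library and for Nid1 and Lama3 in the LLC-bearing library, and were apart for the other neighbours. The place of Lama3 depends on the transcript length it is divided by. With the shorter length given below it would be at 22.2 RPKM in the control, above Lamc1 at 21.2 RPKM. In the LLC-bearing library it would be at 18.5 RPKM, above Hspg2 at 14.9 RPKM. As deposited, the 9 genes summed to 202 RPKM (control) and 286 RPKM in the LLC-bearing library.

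**Figure D1:**
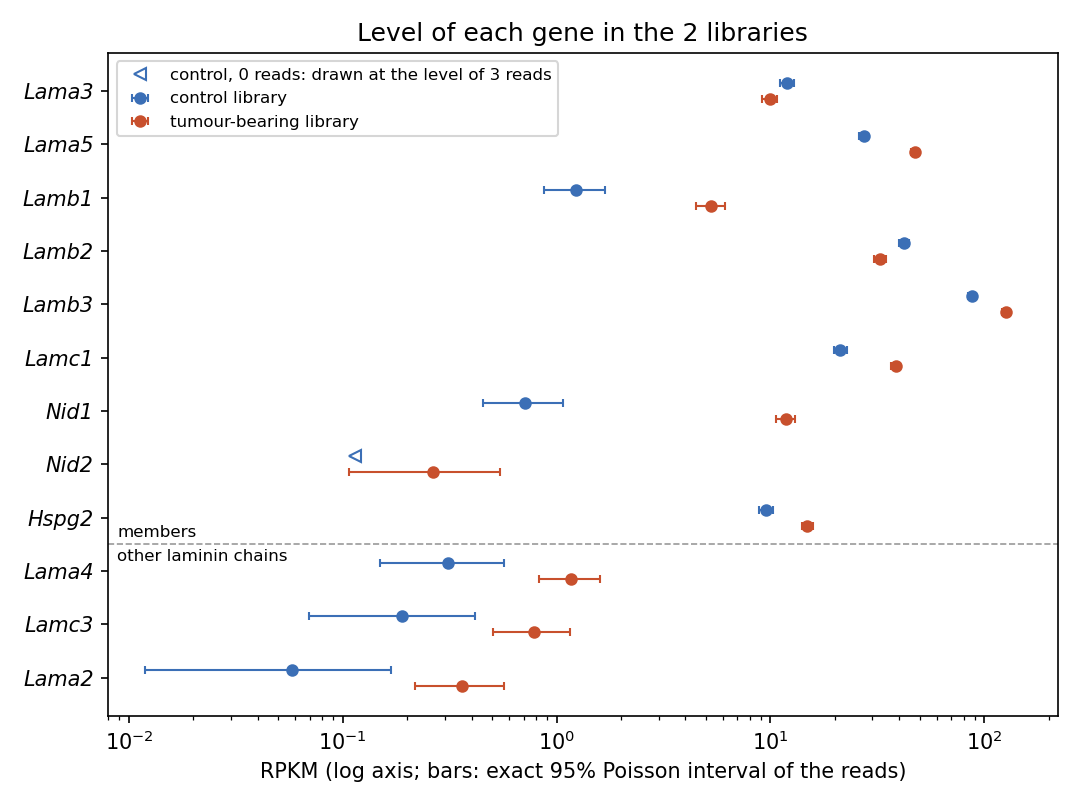
RPKM of the 9 genes and of 3 other laminin chain genes (log axis) in the control library (blue) and the LLC-bearing library (red), with exact Poisson intervals of the reads and an open triangle at 3 reads for Nid2, which had 0 control reads. Nid1 and Lamb1 lie far apart between the libraries, and Lama3 and Lamb2 are the members with the tumour-bearing point to the left of the control point.

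The size of a difference was read on the scale log2((tumour-bearing RPKM + 1)/(control RPKM + 1)), which pulls the ratios of low genes towards 0, for genes that reached 1 RPKM in either library. Of the 9 members 8 passed this filter, and Nid2 did not. Nid1 passed it only through the LLC-bearing library, so it had to be higher there. On this scale 2 members, Nid1 and Lamb1, were at least 2-fold higher in the LLC-bearing library, where 9.38% of all 12288 genes that passed were. No member was at least 2-fold lower, against 6.53% of all genes. A further 4 members (Lamc1, Lama5, Hspg2 and Lamb3) lay above 0, making 6 of 8, where 53.8% of all genes did, and 2 of 8, Lama3 and Lamb2, lay below 0, where 46.2% of all genes did. The median of the 8 was 0.68 beside 0.06 for all 12288 genes, and with no filter the median of all 9 was 0.59. With 5 RPKM added in place of 1, Lamb1 no longer passed 2-fold.

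**Figure D2:**
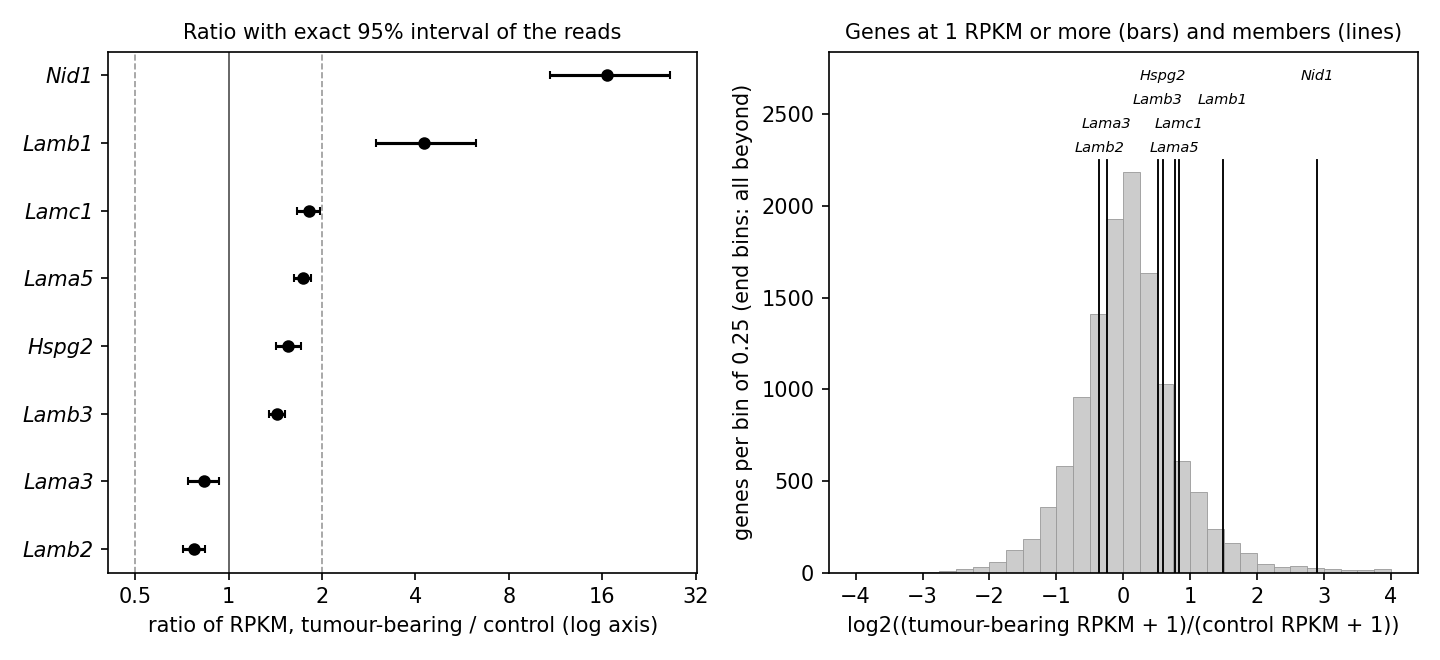
Left, ratio of RPKM between the libraries (log axis) with the exact interval of the reads, for 8 members (circles), and broken lines at 2-fold. Right, histogram of the log2 ratio with 1 RPKM added of 12288 genes and the 8 members as lines; Nid1 at 2.90 and Lamb1 at 1.49 lie in the right-hand tail, the other 6 between -0.36 and 0.83.

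Of the beta chains, Lamb1 was the low one in both libraries and the one with the largest ratio. Lamb1 (GeneID 16777, chromosome 12, 31265146 to 31329644 on mm10), the widespread beta chain that pairs with Lamc1, had 38 reads and 1.23 RPKM in the control library and 164 reads and 5.27 RPKM in the LLC-bearing library. This was 4.27-fold higher, with an interval of 2.99 to 6.25, and 3.92% of all genes that passed the filter had a log2 ratio as high or higher. Lamb2 (GeneID 16779, chromosome 9, 108479847 to 108490530), the beta chain best known from kidney and synaptic basement membranes and also made in lung, ran the other way. It was at 42.0 RPKM in the control (1260 reads) and 32.5 RPKM in the LLC-bearing library (985 reads), 1.29-fold lower with an interval of 1.19 to 1.41. Lamb3 (GeneID 16780, chromosome 1, 193294353 to 193343878), which assembles with the product of Lama3 in epithelial basement membranes, was the most abundant member. It was at 87.8 RPKM (1900 reads) in the control and 126 RPKM (2753 reads) in the LLC-bearing library, 1.44-fold higher (1.35 to 1.52), and ranked 609th and 455th among all genes of its library. The counting intervals of the libraries were apart for each of the 3 beta chains.

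Relative to each other within a library, which no scaling between the libraries can alter, the beta chains were also at different ratios. Lamb1 stood at 0.0294 of the RPKM of Lamb2 in the control and 0.162 in the LLC-bearing library, a 5.52-fold higher ratio (exact conditional interval 3.81 to 8.15). Lamb3 stood at 2.09 and 3.88 times Lamb2, a 1.85-fold higher ratio (1.67 to 2.05). As shares of the summed RPKM of the 3 beta chain genes, Lamb3 held 67.0% in the control and 76.9% in the LLC-bearing library, Lamb2 32.0% and 19.8%, and Lamb1 0.941% and 3.22%. The larger share of Lamb1 thus remained a small part of the beta chains in both libraries.

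Sequence from the 250 bases before the start sites of Nid1, the member with the largest ratio, Lamb1, the other member past 2-fold, and Lamb2, the beta chain that was lower, is given here 5′ to 3′ from RefSeq on GRCm38.p6, the assembly that mm10 denotes. All 3 lie on the plus strand, at chr13:13437352-13437601, chr12:31265043-31265145 and chr9:108479612-108479846. For Lamb1 and Lamb2 only the 103 and 235 bases outside the annotated gene are printed. Both strands were searched for 5 motifs. The GC box was spelled GGGCGG. The CCAAT box was spelled by its name. The TEAD motif was spelled GGAATG. The AP-1 motif was spelled TGANTCA. The TATA box was spelled TATAAA. Capitals mark the matches, and no match in these windows overlaps another.
Nid1: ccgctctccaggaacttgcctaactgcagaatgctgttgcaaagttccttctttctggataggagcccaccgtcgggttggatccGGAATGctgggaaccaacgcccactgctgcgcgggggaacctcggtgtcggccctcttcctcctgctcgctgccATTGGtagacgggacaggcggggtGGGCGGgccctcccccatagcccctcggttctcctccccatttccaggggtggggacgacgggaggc
Lamb1: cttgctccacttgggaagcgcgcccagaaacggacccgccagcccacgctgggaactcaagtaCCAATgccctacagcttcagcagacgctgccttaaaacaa
Lamb2: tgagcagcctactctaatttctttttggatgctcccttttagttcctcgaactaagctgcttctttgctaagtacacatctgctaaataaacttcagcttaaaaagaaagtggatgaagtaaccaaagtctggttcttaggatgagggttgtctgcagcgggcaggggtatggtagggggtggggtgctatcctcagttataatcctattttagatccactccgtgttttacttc
The Nid1 window held 1 GC box that starts 67 bases before the start site, 1 CCAAT box at 91 bases and 1 TEAD match at 165 bases. The Lamb1 window held 2 GC boxes, at 84 and 75 bases in the stretch not printed, and 1 CCAAT box at 187 bases. These distances count from the end of the window at 31265292, which lies inside the annotated gene that starts at 31265146. The 2 GC boxes thus lie inside the annotated gene and the CCAAT box before it. None of the 5 motifs was in the Lamb2 window, whose GC content was 43.6% against 64.4% for Nid1, 62.0% for Lamb1 and a median of 52.4% over all 32851 RefSeq windows of this length. Of these windows 32.7% held a GC box, 33.8% a CCAAT box, 12.6% the TEAD motif, 6.75% the AP-1 motif and 12.4% a TATA box. The table held windows for 6 of the 9 members, of which those of Lama5 and Hspg2 held 4 and 5 GC boxes. A match of letters is a description of the window, not a binding site.

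Between the alpha chains, Lama5 was the more abundant in both libraries and the ratio between the genes was wider in the LLC-bearing library. Lama5 (GeneID 16776, chromosome 2, 180176373 to 180225904), the alpha chain of most adult epithelial basement membranes, was at 27.2 RPKM (1658 reads) in the control and 47.2 RPKM (2901 reads) in the LLC-bearing library. That was 1.73-fold higher (1.63 to 1.84). Lama3 (GeneID 16774, chromosome 18, 12333417 to 12583013), the alpha chain of the trimer that anchors epithelium through hemidesmosomes, was at 11.9 RPKM (658 reads) and 9.91 RPKM (552 reads). It was 1.20-fold lower in the LLC-bearing library (1.07 to 1.35), opposite to its partner chain Lamb3. Lama5 stood at 2.29 times Lama3 in the control and 4.77 times in the LLC-bearing library, a 2.09-fold higher ratio (1.83 to 2.38). Lama3 held 30.2% of the summed RPKM of the alpha chain genes in the control and 16.9% in the LLC-bearing library, and Lama5 68.9% and 80.5%. The level of Lama3 rests on the length of 10343 bases that the deposited values imply. GENCODE M21 also lists a coding transcript of 5551 bases for this gene, and divided by that length the same reads would give 22.2 and 18.5 RPKM and shares of 44.6% and 27.5%. The ratio between the libraries is the same for either length.

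The other alpha chain genes were near the limit of the reads. Lama4, an alpha chain of vessels and muscle, had 10 control reads and 38 in the LLC-bearing library, 3.76-fold higher (1.84 to 8.47), and reached 1.17 RPKM. It passed the filter only through the LLC-bearing library, so its direction was set by the filter. Lama2, the muscle and nerve alpha chain, had 3 and 19 reads, a ratio of 6.27 (1.85 to 33.1), and Lama1 had no row in either table. Endothelial and fibroblast markers were higher in the same library, with the sums given above.

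Lamc1 (GeneID 226519, chromosome 1, 153218922 to 153332786), the gamma chain of most trimers and the one that binds nidogen, was higher in the LLC-bearing library by about as much as Lama5. It was at 21.2 RPKM (863 reads) in the control and 38.5 RPKM (1580 reads) in the LLC-bearing library, 1.81-fold higher (1.67 to 1.97). The counting intervals of its levels, 19.8 to 22.7 RPKM and 36.6 to 40.4 RPKM, were apart, and 12.4% of all genes that passed the filter had a log2 ratio as high or higher. Lamc3, a minor gamma chain, had 6 and 25 reads, a ratio of 4.13 (1.65 to 12.3), and stayed under 1 RPKM in both libraries.

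The summed alpha chains were at 39.5 and 58.7 RPKM and the summed beta chains at 131 and 164 RPKM. The beta chains thus stood at 3.31 times the alpha chains in the control and 2.79 times in the LLC-bearing library. These ratios rest on the length of 10343 bases for Lama3. With the shorter transcript, Lama3 would be at 22.2 and 18.5 RPKM, and both ratios would be lower and closer to each other.

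**Figure D3:**
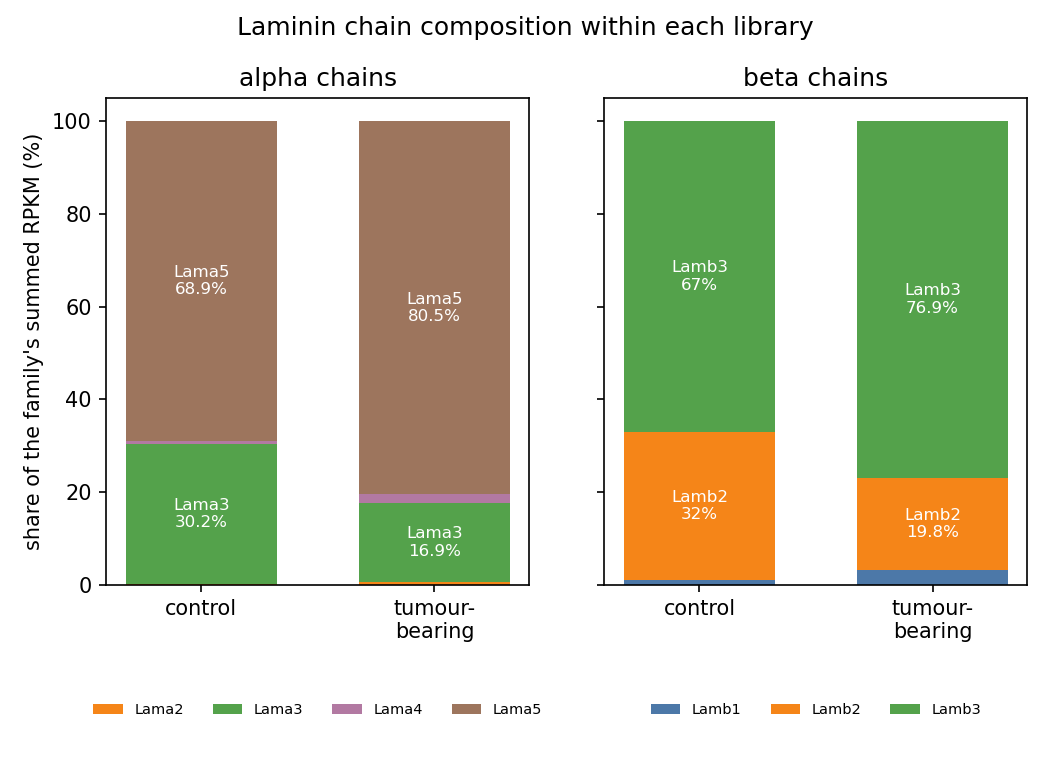
Share of the summed RPKM of the alpha and of the beta chain genes (percent, linear axis from 0) held by each chain in the 2 libraries, 1 bar per library. Lama5 and Lamb3 hold most of their families in both bars, at 68.9% and 67.0% in the control and 80.5% and 76.9% in the LLC-bearing library.

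The chains that assemble with one another did not all keep their proportions. For Lama5 and Lamc1, which share a trimer, the proportions were near each other: Lama5 stood at 1.28 times Lamc1 in the control and 1.23 times in the LLC-bearing library, a ratio of these ratios of 0.956 (0.861 to 1.06). For Lama3 against Lamb2, the pair of members that were lower, the proportions were 0.284 and 0.305, a ratio of ratios of 1.07 (0.930 to 1.24). The partners Lamb3 and Lama3 differed in proportion, since Lamb3 was 7.37 times Lama3 in the control and 12.7 times in the LLC-bearing library, 1.73-fold higher (1.52 to 1.97). Proportions that involve Lama3 rest on its length of 10343 bases, while their ratios of ratios do not. Against Lamc1, Lamb2 went from 1.98 to 0.845, a ratio of 0.427 (0.379 to 0.481), while Lamb1 went from 0.0581 to 0.137, a ratio of 2.36 (1.63 to 3.48). These were read among 28 pairs of 8 members, the intervals are not adjusted for that number, and an interval that includes 1 does not show that a proportion was kept.

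Among the members Nid1 had the largest ratio between the libraries, and Nid2 was close to the limit of the reads. Nid1 (GeneID 18073, chromosome 13, 13437602 to 13512275), the main nidogen of most tissues, had 23 reads and 0.713 RPKM in the control library, rank 11959 among its genes. In the LLC-bearing library it had 385 reads and 11.8 RPKM, rank 4994. That was 16.6-fold higher, with an interval of 10.9 to 26.5, and 0.594% of all genes that passed the filter had a log2 ratio as high or higher. Nid2 (GeneID 18074, chromosome 14, 19751257 to 19811787), its paralog, had no row in the control table and 7 reads (0.264 RPKM) in the LLC-bearing library. Against a floor of 3 reads in the control library, equal to 0.114 RPKM, the LLC-bearing level was at least 2.31-fold higher, a ratio to that floor that takes the 7 reads as they stand. The interval of the split of the reads, which also covers the error of the 7, had its lower limit at 1.43-fold.

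Beside its laminin partner, Nid1 stood at 0.0336 of Lamc1 in the control and 0.307 in the LLC-bearing library, a 9.14-fold higher ratio (5.94 to 14.7). Beside Hspg2 it stood at 0.0747 and 0.795, a 10.6-fold higher ratio (6.89 to 17.1). The fibroblast marker sum was 16.1-fold higher in the same library, and its members Col1a2, Col3a1 and Mgp reached 41.8, 73.5 and 214 RPKM from 1.06, 2.66 and 9.77 RPKM. Of the 14 endothelial markers 11 were past 2-fold upwards, beside 9.38% of all genes. Among the 11, Cldn5, Lyve1 and Vwf reached 19.2, 27.3 and 7.35 RPKM from 0.792, 1.80 and 0.276 RPKM. Cldn5, Emcn and Vwf passed the filter only through the LLC-bearing library, so their direction was set by the filter. The list was not uniform: Kdr was 1.89-fold lower (1.47 to 2.43), Tek was at 3.71 and 3.15 RPKM, and Esam, its most abundant gene, at 68.1 and 71.8 RPKM. Of the 9 smooth muscle and pericyte markers 4 passed the filter, with Pdgfrb at 0.346 and 6.55 RPKM but Notch3 at 1.27 and 1.12 RPKM. Pdgfrb and Tagln passed only through the LLC-bearing library, so their direction was also set by the filter. Acta2, Cnn1 and Cspg4 had 0 control reads and 3, 3 and 1 reads in the LLC-bearing library. The mesothelial sum was nearly all Msln, at 1.49 and 16.6 RPKM, as Wt1 had 4 and 2 reads, Calb2 3 and 0, Upk3b 0 and 4, and Lrrn4 0 in both. The markers that were lower or unlike the rest of their list were named with their values known. The part of those cells in Nid1 and Lamb1 was not tested.

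Hspg2 (GeneID 15530, chromosome 4, 137468751 to 137570630), which encodes the perlecan core protein, was at 9.54 RPKM (723 reads) in the control and 14.9 RPKM (1138 reads) in the LLC-bearing library. This was 1.56-fold higher (1.42 to 1.71), within 2-fold. Its ratio to Lamb3 was 0.109 in the control and 0.118 in the LLC-bearing library, a ratio of ratios of 1.09 (0.972 to 1.21), and to Lamc1 it was 0.450 and 0.387, a ratio of 0.860 (0.757 to 0.976). Agrn, the gene of agrin, the other large heparan sulphate proteoglycan of basement membranes, was at 19.5 and 47.7 RPKM, 2.44-fold higher (2.24 to 2.66), and is named after its values were seen.

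Other genes of the basement membrane were read as lists. Of 22 other components, 16 passed the filter, 5 of them past 2-fold upwards and 0 downwards, beside 9.38% and 6.53% of all genes, with a median of 0.65. Col15a1 and Egflam passed only through the LLC-bearing library, so their direction was set by the filter. The type IV collagen gene Col4a3, also an AT1 marker here, was 2.65-fold higher (2.42 to 2.91), Npnt, encoding nephronectin, an integrin ligand of the alveolar wall, 4.89-fold (4.54 to 5.27), and Tinagl1, a basement membrane glycoprotein gene, 3.40-fold (3.13 to 3.69). Col15a1, a collagen of the vessel and muscle basement membrane, had 1 and 365 reads, a ratio of 361 (64.5 to 14317). Col4a1 and Col4a2, the most abundant type IV collagens and like Agrn chosen for mention with their values known, stood 1.49-fold (1.44 to 1.54) and 1.66-fold (1.60 to 1.72) higher. The other type IV collagens were not all higher: Col4a4 was 1.34-fold higher (1.21 to 1.48), Col4a5 1.16-fold lower (1.02 to 1.33) and Col4a6 1.93-fold lower (1.32 to 2.85). Smoc2, of a matricellular calcium-binding protein, was 1.73-fold lower (1.31 to 2.29). These 4 were also named with their values known.

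Of 19 listed receptors that hold cells to these proteins, 17 passed the filter, 2 were past 2-fold upwards and 0 downwards, with a median of 0.29. The other 15 were within 2-fold, as were 84.1% of all 12288 genes, so the count is near the background. The laminin-binding integrin genes Itga7, Itga6 and Itga3 were higher, Itga7 by a ratio of 3.26 (2.95 to 3.61), Itga6 of 2.38 (2.05 to 2.76) and Itga3 of 1.90 (1.77 to 2.06). Other listed receptors, named with their values known, differed less. The integrin gene Itgb1 was at 133 RPKM in both libraries, a ratio of 1.00 (0.953 to 1.06), and Bcam at 326 and 321 RPKM. Itgb4 was 1.35-fold higher (1.16 to 1.57) and Dag1, which encodes dystroglycan, 1.34-fold higher (1.28 to 1.41). Sdc4, a cell-surface heparan sulphate proteoglycan gene, was 1.93-fold lower (1.83 to 2.04).

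Among 19 genes that build or cut the basement membrane, 17 passed the filter, 5 past 2-fold upwards and 1 downwards, beside 9.38% and 6.53% of all genes, with a median of 0.71. Of the 5, Plat and Plau passed the filter only through the LLC-bearing library. Plat, a plasminogen activator gene, was 16.4-fold higher (6.77 to 52.0), Mmp2, a gelatinase gene, 7.08-fold higher (4.42 to 11.9), and Timp3, an inhibitor of metalloproteinases bound to matrix, 3.08-fold higher (2.93 to 3.24). Adamts1, a secreted metalloproteinase gene, was at 50.8 and 11.5 RPKM, 4.43-fold lower (3.91 to 5.04).

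**Figure D4:**
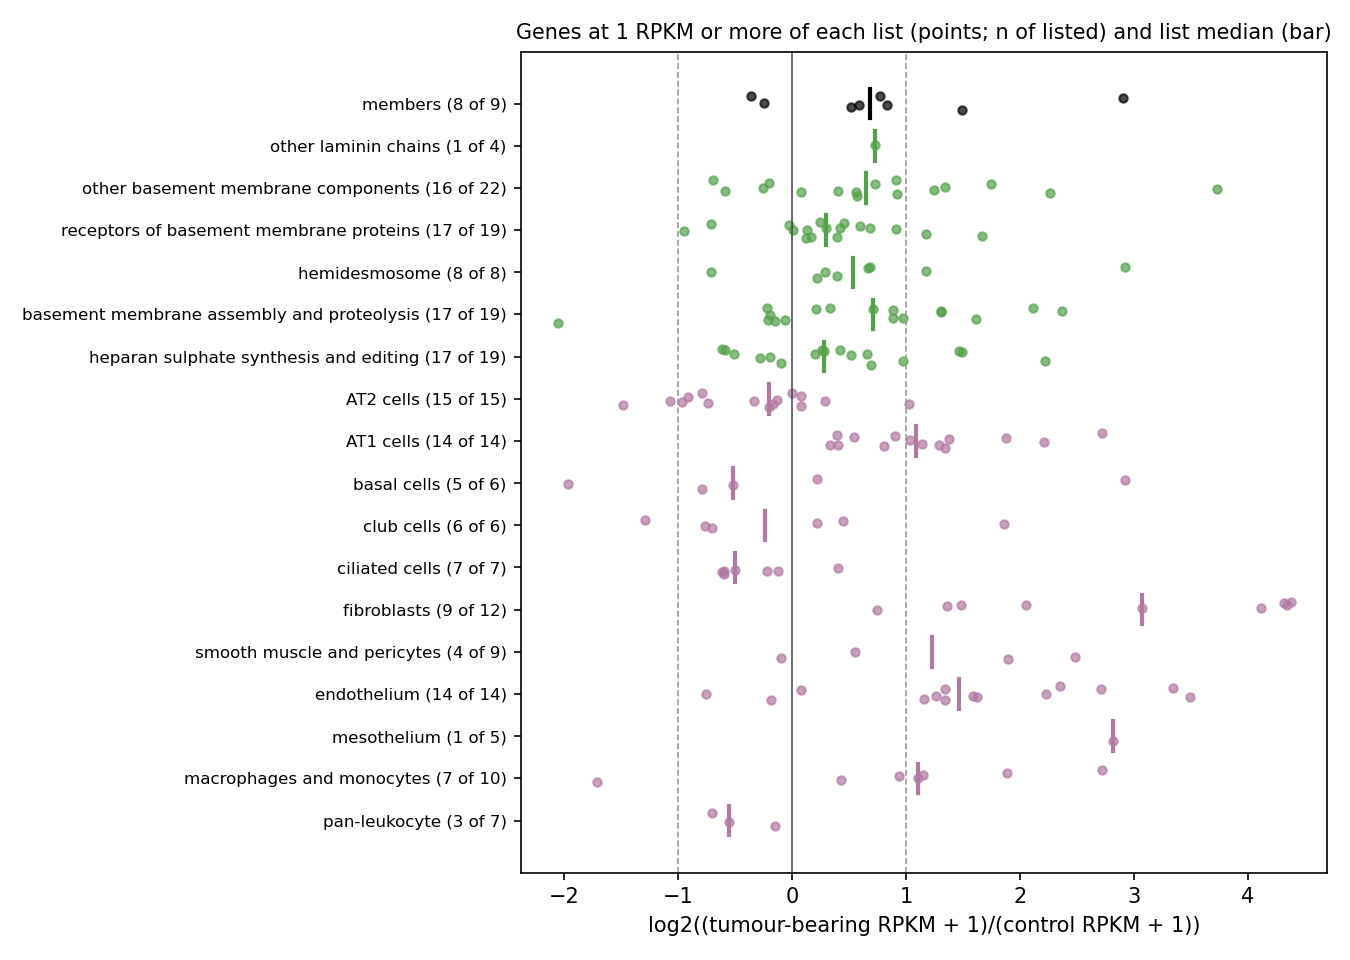
log2 ratio with 1 RPKM added of the genes at 1 RPKM or more in each list (points, jittered vertically) and the median of each list (bar); members black, other basement membrane lists green, cell type markers purple, broken lines at 2-fold. The members' median of 0.68 lies close to the 0.65 of the other components. The fibroblast points reach furthest to the right, with a median of 3.08, which is the value of Pdgfra. Of the 9 fibroblast points, 4 (Col14a1, Dpt, Lum and Pdgfra) passed the filter only through the LLC-bearing library, so their direction was set by the filter.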

How the data were processed

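RNA sequencing was analysed in 2 libraries, 1 control and 1 tumour-bearing, grouped by the labels. Polyadenylated RNA was captured on oligo(dT) beads before fragmentation, per the labels' protocols. Per the submitters' processing notes, Trimmomatic and mm10 were used. The aligner, counter, annotation and strand setting were left unstated in the sources used here. The authors deposited RPKM per gene, per the file headers, and these values were compared as deposited. RPKM divides by the library total in reads. Sftpc alone made up 18.6% of the summed RPKM in one library (control) and 11.2% in the other, and its share of the reads was not estimated.

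Whole reads were recovered from the digits of the RPKM. The library total was the one at which the rows with the fewest reads implied whole gene lengths, each gene's reads and length were the simplest fraction within rounding, and the row order set the multiple. Reads were recovered for 15073 of 15113 genes (99.7%), leaving out the first 20 rows of each table, and 2 of 28133 neighbouring rows were out of order. The order was used in the recovery and is no independent check. The totals are estimates of this work. On simulated data for 15073 genes the totals were returned and 99.96% of recovered genes were correct. The 2-fold rule found 100% of genes simulated with 4-fold and 99% of those with 3-fold differences, and 0.351% of unchanged genes. The changed genes were drawn from those with a mean above 100 reads, and the simulated noise was counting error alone. The first 2 rates thus do not cover genes with few reads, and no rate covers differences between mice or preparations.

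Folds divide the deposited RPKM of one library by the other, and their 95% intervals are Clopper-Pearson intervals of the split of a gene's reads. A gene at 0 reads was given a floor of 3 reads. Calls used log2 of RPKM + 1 and a filter at 1 RPKM in at least 1 library. Ratios between genes have exact conditional intervals of the odds ratio. Conditions could not be tested, each having 1 library. The members and lists were chosen with earlier results of these data known. Some laminin chain results, the composition of the gamma chains among them, are not reported here. Named were all members and the other laminin chains given, up to 4 genes per other pathway list and up to 3 per marker list with the largest log2 ratio at 5 RPKM or more. Further genes, such as those that made up most of a sum or ran against their list, were named with their values known. Genes were matched to RefSeq (GRCm38.p6) by GeneID for 15080 of 15113. Alternatives were other scalings, pseudocounts, filters and size rules, recovered reads, and the shorter Lama3 transcript, chosen after the data were seen. Python 3.11.15, pandas 2.3.3 and SciPy 1.17.1 were used.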

Additional observations from a re-analysis of the deposited data

How the results depend on the processing

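Over the 7 other settings of scaling, pseudocount or reads, each member kept the direction of its log2 ratio. The range was 1.56 to 4.02 for Nid1, 0.72 to 2.08 for Lamb1, -0.42 to -0.33 for Lamb2 and -0.31 to -0.18 for Lama3. The number of members at least 2-fold higher, 2 as reported, was 1 with 5 RPKM added, 5 at a threshold of 1.5-fold and 1 at 4-fold, and 0 members were lower at any of these. The median of the members stayed between 0.59 and 0.72. Shares of reads in place of RPKM weight long genes more. On reads, the control shares were 28.3% for Lama3, 71.2% for Lama5, 39.4% for Lamb2 and 59.4% for Lamb3. In the LLC-bearing library they were 82.6% for Lama5, 4.20% for Lamb1, 25.2% for Lamb2 and 70.6% for Lamb3. With the shorter Lama3 transcript the shares in the control and LLC-bearing library were 44.6% and 27.5% for Lama3 and 54.7% and 70.3% for Lama5. Of the marker medians, that of the fibroblast list was 4.44 with 0.1 RPKM added, and that of the pan-leukocyte list -0.72. In the fibroblast list 4 of the 9 genes passed the filter only through the LLC-bearing library, and in the pan-leukocyte list 1 of 3, Laptm5, only through the control. The direction of these genes was set by the filter. The mesothelial value, from 1 gene, was 3.39 with 0.1 RPKM added, 1.73 with 5 and 2.78 with trimmed-mean scaling. The value of the other laminin chains, from Lama4 alone, was 1.63, 0.22 and 0.70 under the same 3 settings. Its direction was set by the filter, which Lama4 passed only through the LLC-bearing library. No paired analysis was possible because each group has 1 library. Depth limited Nid2, Lama2 and Lamc3, which had fewer than 10 reads in the control library.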

Other observations

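Hemidesmosomes, the junctions through which laminin built with the products of Lama3 and Lamb3 anchors epithelial cells, were read as a list of 8 genes. All 8 passed the filter at 1 RPKM, 2 were past 2-fold upwards and 0 downwards, beside 9.38% and 6.53% of all genes, with a median of 0.53. One of the pair, Krt14, passed only through the LLC-bearing library, so it could be called in no other direction. Krt14, a keratin of basal cells, had 2 control reads and 75 in the LLC-bearing library, a ratio of 37.1 (9.93 to 312). Its usual partner Krt5 was at 15.7 and 18.4 RPKM, 1.17-fold higher (0.960 to 1.44), and the basal cell marker Krt15 was 1.79-fold lower (1.41 to 2.28). The summed RPKM of the 6 basal cell markers was 44.3 in the control and 41.1 in the LLC-bearing library. Dst, encoding a plakin that links the junction to keratin filaments, was 1.74-fold lower (1.59 to 1.90), and Cd151, a tetraspanin gene, 1.62-fold higher (1.44 to 1.83).

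Genes that make and edit heparan sulphate, the sugar chain carried by perlecan and agrin, were a list of 19, of which 17 passed the filter. Of these 3 were past 2-fold upwards, 0 downwards and 14 within 2-fold, where 84.1% of all genes were, so the count is near the background, and the median was 0.28. Hpse and Hs3st1 passed only through the LLC-bearing library. Sulf2, which removes sulphate groups outside the cell, was at 5.08 and 16.1 RPKM, 3.17-fold higher (2.54 to 3.97). Hs3st1, a sulphotransferase gene, had 4 and 52 reads, a ratio of 12.9 (4.74 to 49.0), and B4galt7, of the linker region, 16 and 60 reads, a ratio of 3.71 (2.11 to 6.91). Ndst1, which starts sulphation of the chain, was 1.64-fold higher (1.51 to 1.77). Of the 17 genes, 11 lay above 0 and 6 below. Among the 6, B3galt6 had 38 and 19 reads, 2.02-fold lower (1.14 to 3.71), but was within 2-fold with 1 RPKM added. Glce was 1.70-fold lower (1.23 to 2.38) and Hs6st2 1.71-fold lower (1.10 to 2.72). These lower genes were named with their values known.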
